A study of Homo sapiens with 4 samples.

Results

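The genes described here are the aldehyde dehydrogenases (ALDH), aldo-keto reductases (AKR) and alcohol dehydrogenases (ADH) in RNA sequencing of A375, a human melanoma line with a mutant BRAF kinase. Members were the protein-coding rows of the deposited gene table whose symbol begins with ALDH, AKR or ADH followed by a digit, plus ADHFE1. The rule used names and no measured value, and it found 39 genes among 2864 in the table, 2258 of them protein-coding. There were 19 ALDH, 12 AKR and 8 ADH genes. ADHFE1 is counted with ADH by name, although it is an iron-dependent enzyme of another protein family.

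The study asked which RNAs accompany resistance to vemurafenib, an inhibitor of mutant BRAF. All libraries came from A375 cells in DMEM with fetal bovine serum. A375P was the parental line without treatment, and A375R was a resistant strain that the laboratory made by raising vemurafenib in steps over months and kept in the drug. A375+DMSO received the solvent for 48 h and A375+VEM received 2 μM vemurafenib for 48 h. Each condition had 1 library, so no difference between conditions could be tested and no p-value is given. A375R is 1 strain, and strain, drug and library cannot be told apart in it.

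Aldehyde dehydrogenases oxidise aldehydes to acids with NAD or NADP and take part in retinoic acid synthesis, folate metabolism, amino acid breakdown and the removal of lipid aldehydes. Aldo-keto reductases reduce aldehydes and ketones with NADPH, and their AKR1C branch acts on steroids and prostaglandins. Alcohol dehydrogenases interconvert alcohols and aldehydes, and most of this family is known for ethanol oxidation in liver, whereas ADH5 removes formaldehyde in nearly every cell.

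The authors deposited whole-number read counts and TPM, in which reads are divided by gene length and scaled so that every library has the same sum. The table holds an alphabetical stretch of the gene list, carrying 8.48% to 8.94% of the TPM of a library and 1891215 to 2054277 reads, which is not the library's depth. A gene was compared between libraries if it reached a TPM of 1 in at least 1 of the pair, and was called higher or lower if its ratio of (TPM + 0.1) passed 1.5-fold. Other folds are ratios of TPM without the 0.1, with exact 95% Clopper-Pearson intervals on the reads that cover counting error only. Of 7 genes fixed as pigment cell or melanoma markers, 6 reached a TPM of 1 in at least 1 library. The 7 together summed to 80.9 to 134 TPM per library. BIRC7 reached a TPM of 1 in A375+VEM alone (1.66 TPM), and ABCB5 had at most 6 reads. All 6 hepatocyte markers also reached a TPM of 1 in at least 1 library, with summed levels of 67.0 to 87.1 TPM. None of the adipocyte, muscle, myeloid or red cell markers did.

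Of the 39 members, 28 reached a TPM of 1 in at least 1 library and 21 reached a TPM of 5. The other 11 lay between 0 and 0.840 TPM in every library and were ADH1A, ADH6, ADH7, AKR1B15, AKR1C4, AKR1D1, ALDH1A2, ALDH1L1, ALDH3A1, ALDH3B2 and ALDH8A1. ALDH1A3 was the most abundant in A375P, A375R and A375+DMSO, while ALDH18A1 was the most abundant ALDH gene in A375+VEM. The ALDH family summed to 1195 TPM for A375P, 1707 for A375R, 1183 for A375+DMSO and 668 for A375+VEM. ALDH1A3 made up 68.2%, 76.1%, 58.2% and 14.8% of these sums in the same order. Without ALDH1A3 the highest sum was in A375+VEM and the lowest in A375P, since the other 18 ALDH genes summed to 380.4 TPM for A375P, 408 for A375R, 494 for A375+DMSO and 569 for A375+VEM. The AKR family summed to 218 TPM for A375P, 343 for A375R, 288 for A375+DMSO and 287 for A375+VEM. AKR1B1 was its most abundant gene in each library, and without it the sums ran from 127 TPM in A375P to 146 TPM in A375+VEM. The ADH family varied least, between 95.1 and 106 TPM, with ADH5 carrying 86.1% to 93.3% of it.

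**Figure D1:**
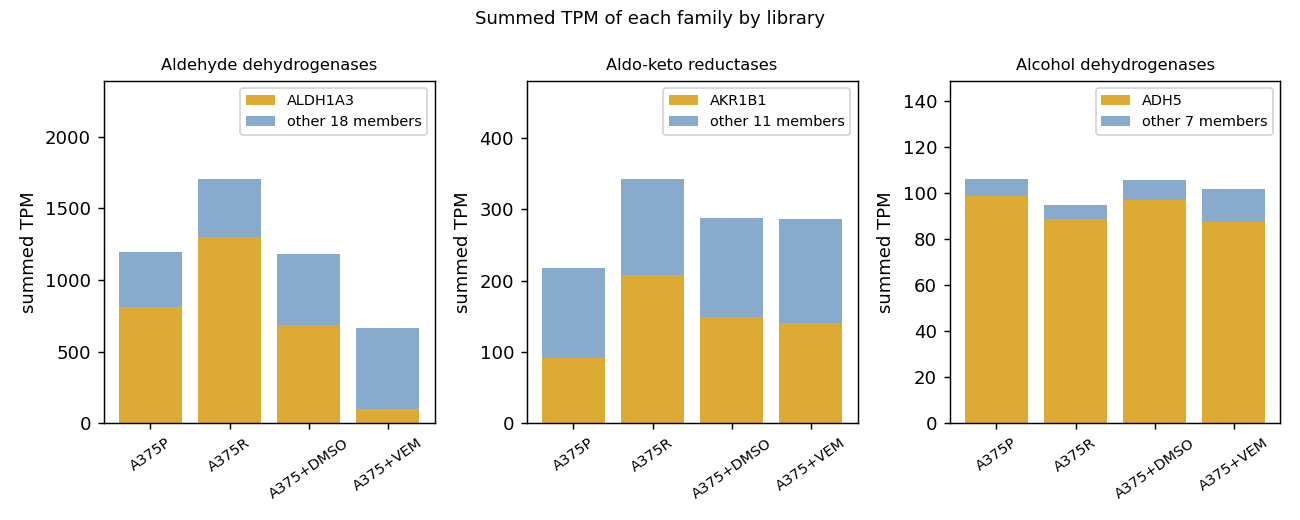
Summed TPM of the 19 ALDH, 12 AKR and 8 ADH genes in each library, as stacked bars from 0 with the most abundant gene of the family in yellow and the other members in blue, 1 library per bar and so no error bar. ALDH1A3 fills 76.1% of the ALDH bar in A375R and 14.8% in A375+VEM, while the blue part is taller in A375+VEM than in the other libraries.

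**Figure D2:**
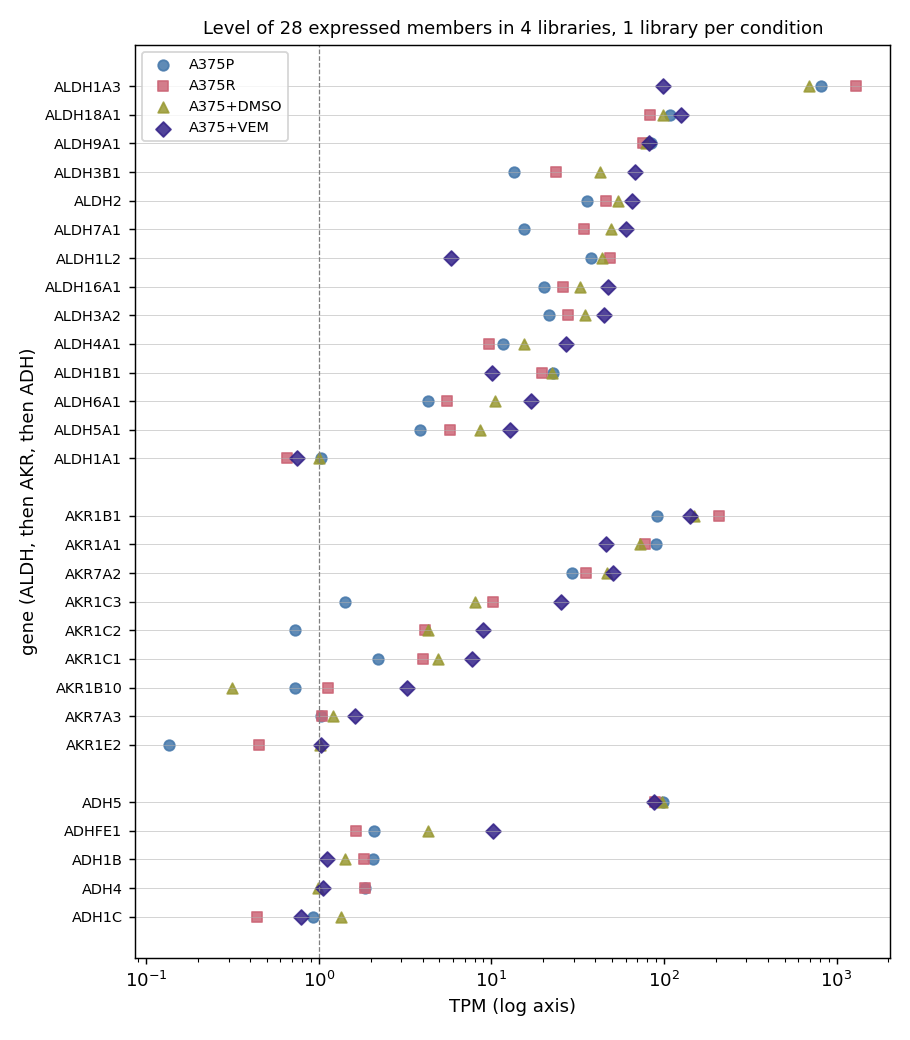
TPM on a log axis of the 28 members that reached a TPM of 1, with 1 marker per library and the dashed line at a TPM of 1. A375+VEM is the leftmost marker in 6 of the 28 rows (ALDH1A3, ALDH1L2, ALDH1B1, AKR1A1, ADH5 and ADH1B). It lies to the right of the other libraries in 17 rows.

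Between A375R and A375P, 26 members were compared, of which 7 were higher in A375R and 1 was lower. Among all genes compared in this pair 44.3% were past 1.5-fold in either direction, 26.8% higher and 17.5% lower. The 26.9% of members that were higher was near the background. The shares of members that were lower (3.85%) or past 1.5-fold in either direction (30.8%) were below it. Those higher were AKR1B1, AKR1C1, AKR1C2, AKR1C3, ALDH1A3, ALDH3B1 and ALDH7A1, and the lower one was ALDH1A1. The median log2 ratio was 0.36 over the members and 0.10 over all genes compared.

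In the acute pair, A375+VEM against A375+DMSO, 28 members were compared, of which 8 were higher and 5 lower. The share past 1.5-fold was 46.4% of members against 46.2% of all genes, where 26.5% were higher and 19.7% lower. Higher were ADHFE1, AKR1B10, AKR1C1, AKR1C2, AKR1C3, ALDH3B1, ALDH4A1 and ALDH6A1, and lower were ADH1C, AKR1A1, ALDH1A3, ALDH1B1 and ALDH1L2. The members had a median log2 ratio of 0.28, and all genes compared one of 0.11.

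The untreated and the solvent library also differed, and each of the pairs above has one of them as its control. In A375+DMSO against A375P, 14 of 27 members were higher and ADH4 was lower. This was 51.9% of members higher, where the background was 26.8% higher, 18.9% lower and 45.7% in either direction, with median log2 ratios of 0.61 and 0.09. The 14 were 7 of 14 ALDH genes, 6 of 8 AKR genes and ADHFE1. When A375R was set against A375+DMSO instead of A375P, 3 of 28 members were higher and 6 were lower, or 32.1% against a background of 20.5% (10.5% higher and 9.99% lower). AKR1B1, AKR1C1, AKR1C2, AKR1C3, ALDH3B1 and ALDH7A1, all higher in A375R against A375P, were not higher against A375+DMSO, which left ALDH1A3 as the 1 gene of the 7 that was higher against both. ALDH3B1 was lower there. These comparisons share libraries, so their member lists are not independent of each other.

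**Figure D3:**
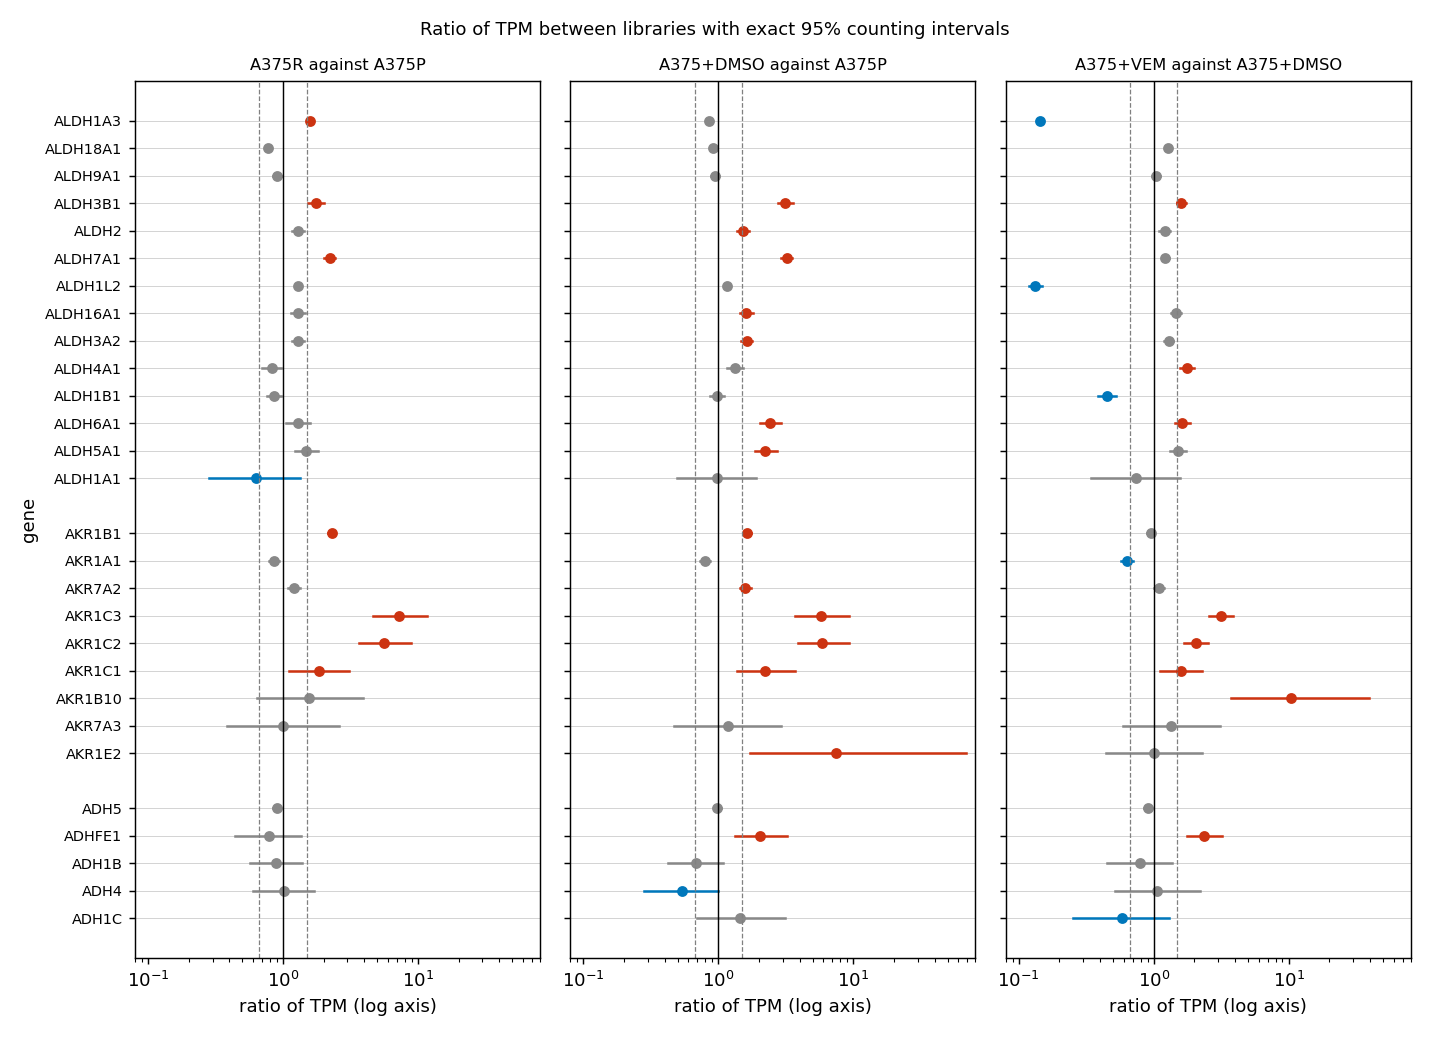
Ratio of TPM on a log axis for the 28 members in 3 comparisons, with exact 95% counting intervals as bars, the solid line at a ratio of 1 and dashed lines at 1.5-fold in each direction. Red points are genes called higher, blue points genes called lower and grey points the rest, and the middle panel, which sets the solvent library against the untreated one, holds 14 red points and 1 blue point.

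ALDH1A1, ALDH1A2 and ALDH1A3 make retinoic acid from retinaldehyde. ALDH1A3, at chr15:101419897-101456831 on the plus strand in the authors' table (hg19 by the submitters' notes), had 815 TPM (A375P), 1299.7 (A375R), 689 (A375+DMSO) and 99.1 (A375+VEM). These values rested on 2839 to 36303 reads. A375R was the highest library and A375+VEM the lowest by a wide margin. In A375R it was 1.60-fold (95% interval 1.57 to 1.62) higher than in A375P and 1.89-fold (95% interval 1.85 to 1.92) higher than in A375+DMSO. The first of these lay close to the 1.5-fold line and fell below it, to a log2 ratio of 0.58, when the pair was scaled to a median ratio of 1. In A375+VEM it was 6.95-fold (95% interval 6.68 to 7.23) lower than in A375+DMSO, and A375+DMSO and A375P were within 1.5-fold of each other. In bulk RNA, fewer cells with a transcript and less of it per cell cannot be told apart.

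The 250 bases before the ALDH1A3 start, from RefSeq on GRCh38.p14 at chr15:100879581-100879830 (plus strand), are shown because this gene carried most of the family's summed TPM in A375P, A375R and A375+DMSO. They are 82.4% G and C with 38 CpG dinucleotides, and have no capitals because none of the 5 motifs given below is in them.
ALDH1A3: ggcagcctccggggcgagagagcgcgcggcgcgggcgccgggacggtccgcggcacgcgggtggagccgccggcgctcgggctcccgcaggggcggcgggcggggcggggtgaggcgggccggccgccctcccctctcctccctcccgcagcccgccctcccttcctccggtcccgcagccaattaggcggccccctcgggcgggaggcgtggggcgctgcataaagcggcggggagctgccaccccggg

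The other retinaldehyde enzymes were scarce. ALDH1A1 had 21 reads (A375P), 12 (A375R), 19 (A375+DMSO) and 14 (A375+VEM), at a TPM of at most 1.03, and ALDH1A2 stayed under a TPM of 1 in every library. ALDH1A1 was called lower in A375R than in A375P at a ratio of 0.633, but its 95% interval of 0.284 to 1.35 holds 1, and a difference could not be detected from so few reads.

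ALDH1L1 and ALDH1L2 oxidise a folate-bound formyl group, ALDH1L1 in the cytosol and ALDH1L2 in mitochondria. ALDH1L2 had 38.0 TPM (A375P), 48.9 (A375R), 44.0 (A375+DMSO) and 5.83 (A375+VEM). A375+VEM stood apart, and the other libraries lay within 1.5-fold of each other. The level in A375+VEM was 7.54-fold (95% interval 6.74 to 8.45) lower than in A375+DMSO, from 2650 to 349 reads. The cytosolic enzyme ALDH1L1 did not reach a TPM of 1. ALDH1B1, a mitochondrial enzyme that oxidises acetaldehyde, had 22.8 TPM (A375P), 19.6 (A375R), 22.4 (A375+DMSO) and 10.1 (A375+VEM). It was 2.21-fold (95% interval 1.90 to 2.58) lower in A375+VEM than A375+DMSO and between 19.6 and 22.8 TPM elsewhere. ALDH1A3, ALDH1L2 and ALDH1B1 were the 3 ALDH genes called lower in A375+VEM, out of 14 compared. This 21.4% was near the 19.7% of all genes that were lower in this pair, and 3 other ALDH genes were called higher.

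Among the ALDH genes of catabolism, ALDH7A1, ALDH6A1, ALDH5A1 and ALDH2 were higher in A375+DMSO than in A375P, and ALDH6A1 was higher again in A375+VEM. ALDH4A1 was called higher in A375+VEM alone. ALDH7A1, which acts in lysine breakdown, had 15.5 TPM (A375P), 34.3 (A375R), 49.7 (A375+DMSO) and 60.6 (A375+VEM). Its main step lay between A375P and the other libraries, at 2.22-fold (95% interval 2.02 to 2.44) higher in A375R and 3.21-fold (95% interval 2.93 to 3.51) higher in A375+DMSO. ALDH6A1, an enzyme of valine breakdown, had 4.31 TPM (A375P), 5.54 (A375R), 10.4 (A375+DMSO) and 17.1 (A375+VEM). It was 2.42-fold (95% interval 2.03 to 2.91) higher in A375+DMSO than in A375P and 1.63-fold (95% interval 1.44 to 1.85) higher in A375+VEM than A375+DMSO, while A375R was 1.89-fold (95% interval 1.59 to 2.24) lower than A375+DMSO. ALDH6A1 overlaps BBOF1 on the other strand, which had 30, 18, 40 and 64 reads in A375P, A375R, A375+DMSO and A375+VEM. Whether the authors counted reads by strand is not given in the sources used here.

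ALDH4A1, which turns the proline breakdown product into glutamate, had 11.6 TPM (A375P), 9.63 (A375R), 15.4 (A375+DMSO) and 27.2 (A375+VEM). It was 1.77-fold (95% interval 1.57 to 1.99) higher in A375+VEM than A375+DMSO, and A375R was 1.60-fold (95% interval 1.37 to 1.87) lower than A375+DMSO. Of the 50-base stretches of its transcript, 42.9% also occur in another gene of GENCODE 29, AL080251.1. ALDH5A1, which oxidises succinic semialdehyde from the breakdown of GABA, had 3.84 TPM (A375P), 5.72 (A375R), 8.56 (A375+DMSO) and 12.9 (A375+VEM). It was 2.23-fold (95% interval 1.85 to 2.70) higher in A375+DMSO than in A375P. With the drug for 48 h its level was 1.502-fold that with solvent (95% interval 1.31 to 1.72) and in A375R it was 1.49-fold that in A375P, and both fell just short of the threshold on the scale of (TPM + 0.1). ALDH2, the mitochondrial enzyme that clears acetaldehyde after drinking, had 35.6 TPM (A375P), 45.9 (A375R), 54.4 (A375+DMSO) and 65.5 (A375+VEM). It passed 1.5-fold once, at 1.53-fold (95% interval 1.38 to 1.69) higher in A375+DMSO than in A375P, and did not pass it under scaling to a median ratio of 1.

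ALDH18A1 and ALDH9A1 were abundant and were called in none of the 4 comparisons. ALDH18A1, which works in the opposite direction to ALDH4A1 by making the precursor of proline, had 108 TPM (A375P), 83.4 (A375R), 98.7 (A375+DMSO) and 125 (A375+VEM). ALDH9A1, which serves carnitine synthesis, had 84.0 TPM (A375P), 75.6 (A375R), 79.1 (A375+DMSO) and 81.7 (A375+VEM). The highest level was 1.11-fold the lowest for ALDH9A1, and 1.499-fold, in A375+VEM over A375R, for ALDH18A1. ALDH16A1, a family member that lacks the catalytic cysteine, had 20.2 TPM (A375P), 26.0 (A375R), 32.5 (A375+DMSO) and 47.5 (A375+VEM). In A375+DMSO it was 1.60-fold (95% interval 1.44 to 1.79) above A375P.

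The ALDH3 group acts on fatty and lipid-derived aldehydes. ALDH3B1 had 13.6 TPM (A375P), 23.7 (A375R), 42.4 (A375+DMSO) and 68.0 (A375+VEM), with A375P lowest and A375+VEM highest. It was 1.75-fold (95% interval 1.53 to 2.01) higher in A375R than in A375P, 3.13-fold (95% interval 2.77 to 3.54) higher in A375+DMSO than in A375P, and 1.60-fold (95% interval 1.48 to 1.74) higher in A375+VEM than A375+DMSO. Against A375+DMSO, however, A375R was 1.79-fold (95% interval 1.61 to 1.99) lower. The call in A375+VEM did not pass 1.5-fold under scaling to a median ratio of 1. ALDH3A2, the fatty aldehyde dehydrogenase of the endoplasmic reticulum, had 21.6 TPM (A375P), 27.6 (A375R), 34.9 (A375+DMSO) and 45.0 (A375+VEM) and was 1.62-fold (95% interval 1.47 to 1.78) higher in A375+DMSO than in A375P. ALDH3A1 had no reads in A375P and A375+VEM, which allows up to 0.155 and 0.167 TPM, and ALDH3B2 stayed under a TPM of 1. The kynurenine pathway enzyme ALDH8A1 did so too.

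In A375R against A375P, the largest folds among the members compared were those of AKR1C3 and AKR1C2. The AKR1C genes are neighbours on chromosome 10, and encode hydroxysteroid dehydrogenases, of which AKR1C1 inactivates progesterone, AKR1C2 inactivates dihydrotestosterone, and AKR1C3 makes testosterone and prostaglandin F. The 250 bases before their starts, from RefSeq on GRCh38.p14, are shown because all 3 genes were called higher in A375R and in A375+VEM and because the first pair is nearly the same sequence. AKR1C1 lies at chr10:4963165-4963414 (plus strand), AKR1C2 at chr10:5003858-5004107 (minus strand) and AKR1C3 at chr10:5048531-5048780 (plus strand). Capitals mark CATGTG in AKR1C1 and AKR1C2 and TATAAA in AKR1C3, each read on the other strand.
AKR1C1: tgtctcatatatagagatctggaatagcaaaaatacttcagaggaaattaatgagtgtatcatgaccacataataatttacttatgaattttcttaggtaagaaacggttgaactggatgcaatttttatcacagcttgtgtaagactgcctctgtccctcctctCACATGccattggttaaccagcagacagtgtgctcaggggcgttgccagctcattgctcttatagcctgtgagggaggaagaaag
AKR1C2: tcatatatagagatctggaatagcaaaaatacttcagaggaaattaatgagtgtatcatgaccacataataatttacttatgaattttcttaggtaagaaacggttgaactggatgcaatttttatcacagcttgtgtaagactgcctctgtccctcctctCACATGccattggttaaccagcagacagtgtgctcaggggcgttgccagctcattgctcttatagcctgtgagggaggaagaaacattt
AKR1C3: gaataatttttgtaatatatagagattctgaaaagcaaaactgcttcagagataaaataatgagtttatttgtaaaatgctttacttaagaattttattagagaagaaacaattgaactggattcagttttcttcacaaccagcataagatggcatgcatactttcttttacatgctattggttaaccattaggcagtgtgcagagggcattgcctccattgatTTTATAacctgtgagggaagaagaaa

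The first pair shares 245 of 254 aligned columns (96.5%), and AKR1C1 and AKR1C3 share 72.4%. The transcripts are alike too, since 50.8% of the 50-base stretches of the AKR1C2 transcript also occur in AKR1C1, whereas 9.61% of those of AKR1C3 occur in AKR1C2. Counts of AKR1C1 and AKR1C2 are therefore uncertain one by one, and their sum with AKR1C3 is given as well.

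AKR1C3 had 1.41 TPM (A375P), 10.2 (A375R), 8.08 (A375+DMSO) and 25.4 (A375+VEM), from 24, 156, 128 and 400 reads. AKR1C2 had 0.730 TPM (A375P), 4.10 (A375R), 4.30 (A375+DMSO) and 8.91 (A375+VEM), from 26, 132, 143 and 294 reads. AKR1C1 had 2.20 TPM (A375P), 4.03 (A375R), 4.90 (A375+DMSO) and 7.76 (A375+VEM), from 26, 43, 54 and 85 reads. In all 3 genes A375P was the lowest library and A375+VEM the highest, with A375R and A375+DMSO between them. AKR1C3 was 7.20-fold (95% interval 4.66 to 11.6) higher in A375R than in A375P, and AKR1C2 was 5.62-fold (95% interval 3.67 to 8.92) higher. Between A375+DMSO and A375P the same genes differed by 5.72-fold (95% interval 3.68 to 9.25) and 5.89-fold (95% interval 3.86 to 9.33). AKR1C1 moved less, at 1.83-fold (95% interval 1.10 to 3.10) in A375R against A375P.

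After 48 h of vemurafenib, AKR1C3 was 3.15-fold (95% interval 2.57 to 3.87), AKR1C2 2.07-fold (95% interval 1.69 to 2.55) and AKR1C1 1.59-fold (95% interval 1.11 to 2.27) higher than in A375+DMSO. The AKR1C1 call did not pass 1.5-fold under scaling to a median ratio of 1. The summed reads of the 3 genes were 76 for A375P, 331 for A375R, 325 for A375+DMSO and 779 for A375+VEM. After scaling, A375R had 4.82-fold the level of A375P (95% interval 3.75 to 6.27) and 1.05-fold that of A375+DMSO (95% interval 0.900 to 1.23). The sum in A375+VEM was 2.41-fold that in A375+DMSO (95% interval 2.12 to 2.76). AKR1C4, the liver form of the group, stayed under a TPM of 1.

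**Figure D4:**
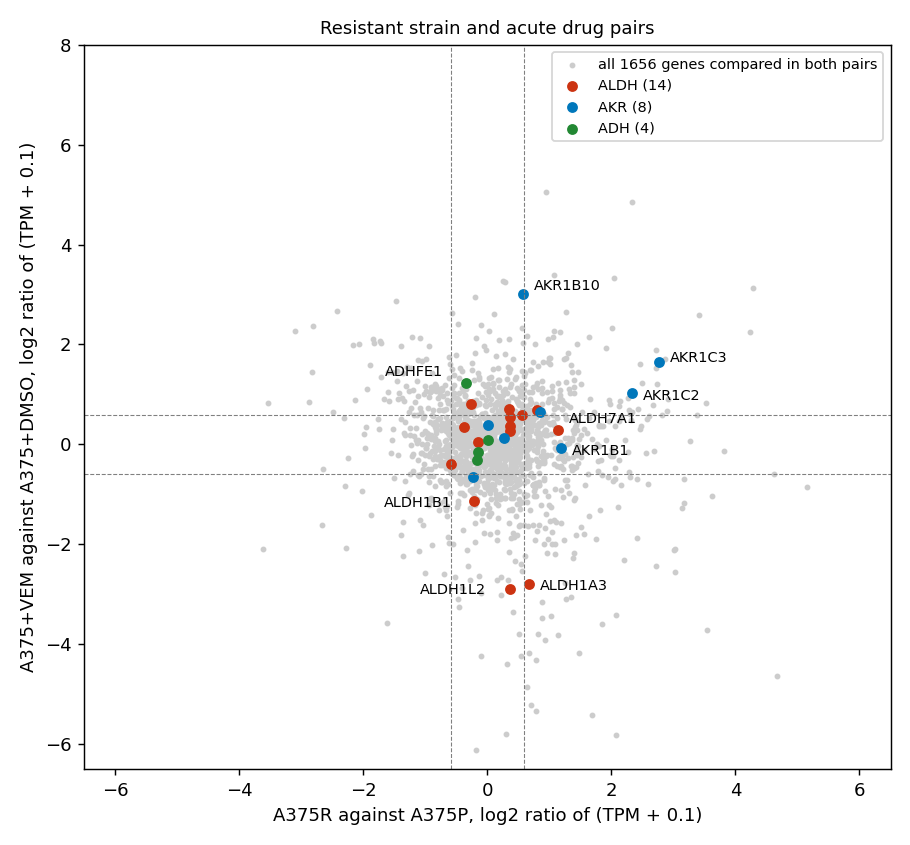
Log2 ratio of (TPM + 0.1) in A375R against A375P on the x axis and in A375+VEM against A375+DMSO on the y axis, pairs that share no library, with members coloured by family, the other genes in grey and dashed lines at 1.5-fold. AKR1C1, AKR1C2, AKR1C3 and ALDH3B1 lie past 1.5-fold in both pairs on the positive side, ALDH1A3 lies at 0.67 and -2.80, and most members lie inside the lines for A375R.

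AKR1B1, aldose reductase, turns glucose to sorbitol and reduces lipid aldehydes. It had 91.0 TPM (A375P), 208 (A375R), 149 (A375+DMSO) and 141 (A375+VEM). A375R was its highest library and A375P its lowest, at 2.29-fold (95% interval 2.15 to 2.43), while A375+DMSO was 1.63-fold (95% interval 1.54 to 1.74) above A375P and A375+VEM did not pass 1.5-fold against A375+DMSO. Its relative AKR1B10, which reduces retinaldehyde among other substrates, was low, with 10 reads (A375P), 14 (A375R), 4 (A375+DMSO) and 41 (A375+VEM). It was 10.3-fold (95% interval 3.74 to 39.7) higher in A375+VEM than A375+DMSO and 3.62-fold (95% interval 1.14 to 15.1) higher in A375R than in A375+DMSO. Both wide intervals come from the 4 reads in A375+DMSO. AKR1B15 did not reach a TPM of 1. AKR1A1, an aldehyde reductase of general use, had 90.3 TPM (A375P), 77.2 (A375R), 72.3 (A375+DMSO) and 46.1 (A375+VEM) and was 1.57-fold (95% interval 1.41 to 1.75) lower in A375+VEM than A375+DMSO, the 1 AKR gene called lower in that pair.

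AKR7A2 reduces succinic semialdehyde, the substrate that ALDH5A1 oxidises. It had 29.4 TPM (A375P), 35.5 (A375R), 46.6 (A375+DMSO) and 51.0 (A375+VEM) and was 1.58-fold (95% interval 1.43 to 1.75) higher in A375+DMSO than in A375P, a call that did not pass 1.5-fold under scaling to a median ratio of 1. AKR7A3 lay between 1.03 and 1.62 TPM, and 23.1% of the 50-base stretches of its transcript also occur in AKR7L. AKR1E2, a reductase of anhydrofructose, had 2 reads (A375P), 6 (A375R), 14 (A375+DMSO) and 14 (A375+VEM). It was 7.50-fold (95% interval 1.72 to 68.0) higher in A375+DMSO than in A375P on very few reads, and its lower value in A375R than in A375+DMSO has an interval that holds 1. The bile acid and steroid reductase AKR1D1 did not reach a TPM of 1.

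The stretch before AKR7A2, at chr1:19312147-19312396 (minus strand, RefSeq, GRCh38.p14), is shown because it was the 1 member promoter with a match to the core of the antioxidant response element, to which the stress factor NRF2 binds. It holds 3 matches, in capitals, the first of them read on the other strand.
AKR7A2: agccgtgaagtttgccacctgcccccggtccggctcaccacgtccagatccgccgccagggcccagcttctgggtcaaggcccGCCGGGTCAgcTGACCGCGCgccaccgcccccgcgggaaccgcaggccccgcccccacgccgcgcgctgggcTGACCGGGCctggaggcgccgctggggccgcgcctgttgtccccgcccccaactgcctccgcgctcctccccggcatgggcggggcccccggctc

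RefSeq promoters, 250 bases before to 50 after a start, were matched for 31 of the 39 members and searched on both strands. Those without a match were ADHFE1, AKR1B10, AKR1B15, ALDH16A1, ALDH1L2, ALDH2, ALDH3A1 and ALDH3B2. The core TGACNNNGC was in 1 of 31 member promoters (3.23%) and in 13.3% of 35116 promoters. The others were chosen after the values of the members were known. The C/EBP-ATF element TGATGNAA was in 2 of 31 (ADH6 and AKR1D1) and 3.62% of all promoters. The E-box CACGTG was in 5 (ADH1B, ADH1C, AKR1A1, ALDH18A1 and ALDH3B1) and 7.26% of all, and the E-box CATGTG in 5 (ADH1A, AKR1C1, AKR1C2, ALDH1B1 and ALDH3B1) and 11.1% of all. TATAAA was in 5 (ADH4, ADH7, AKR1C3, AKR1C4 and ALDH1L1) and 11.5% of all. These motifs do not overlap in the member promoters, and a match is a run of letters and not a shown binding site.

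ADH5, the formaldehyde enzyme also known as S-nitrosoglutathione reductase, had 98.8 TPM (A375P), 88.7 (A375R), 97.2 (A375+DMSO) and 87.7 (A375+VEM). It did not pass 1.5-fold in any comparison. ADHFE1, which oxidises hydroxybutyrate in mitochondria, had 2.09 TPM (A375P), 1.64 (A375R), 4.29 (A375+DMSO) and 10.2 (A375+VEM), from 34, 24, 65 and 153 reads. A375+VEM was 2.37-fold (95% interval 1.76 to 3.22) higher than A375+DMSO, A375+DMSO was 2.05-fold (95% interval 1.33 to 3.20) higher than A375P, and A375R was 2.62-fold (95% interval 1.62 to 4.38) lower than A375+DMSO. Of the 50-base stretches of the ADHFE1 transcript, 57.8% also occur in AC009879.3.

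The classical alcohol dehydrogenases were at the edge of detection. ADH1B had 2.07 TPM (A375P), 1.84 (A375R), 1.42 (A375+DMSO) and 1.12 (A375+VEM), and ADH4 had 1.84 TPM (A375P), 1.86 (A375R), 0.988 (A375+DMSO) and 1.05 (A375+VEM). ADH1C had 0.929 TPM (A375P), 0.441 (A375R), 1.35 (A375+DMSO) and 0.788 (A375+VEM), with its highest value in A375+DMSO. The ADH1 genes are near copies, and 18.6% of the 50-base stretches of the ADH1C transcript also occur in ADH1B. ADH4 was called lower in A375+DMSO than in A375P, at a ratio of 0.536 (95% interval 0.281 to 0.986), and higher in A375R than in A375+DMSO, at 1.88-fold (95% interval 1.01 to 3.63). ADH1C was called lower in A375+VEM than A375+DMSO, but its 95% interval of 0.251 to 1.29 holds 1. It was also lower in A375R than in A375+DMSO, by 3.07-fold (95% interval 1.18 to 9.38), on 6 against 19 reads. The summed reads of ADH1A, ADH1B and ADH1C were 52 in A375R and 58 in A375+DMSO, at a ratio of 0.926 (95% interval 0.624 to 1.37). In A375+VEM against A375+DMSO the ratio of their sum was 0.799 (95% interval 0.530 to 1.20), and both intervals hold 1. ADH1A and ADH6 stayed under a TPM of 1, and the stomach enzyme ADH7 had 0 reads in every library, which allows up to 0.146 to 0.162 TPM.

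ADH1A, ADH1B, ADH1C, ADH4 and ADH6 are known from liver, as are AKR1C4, ALDH1A1 and ALDH8A1, and hepatocyte transcripts were present in all libraries. ALB had 64.5 TPM (A375P), 51.5 (A375R), 47.1 (A375+DMSO) and 46.4 (A375+VEM). APOA1 had 10.0, 9.61, 7.77 and 7.34 TPM in the same order. The part of these transcripts in the values of the low ADH genes was not tested.

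**Figure D5:**
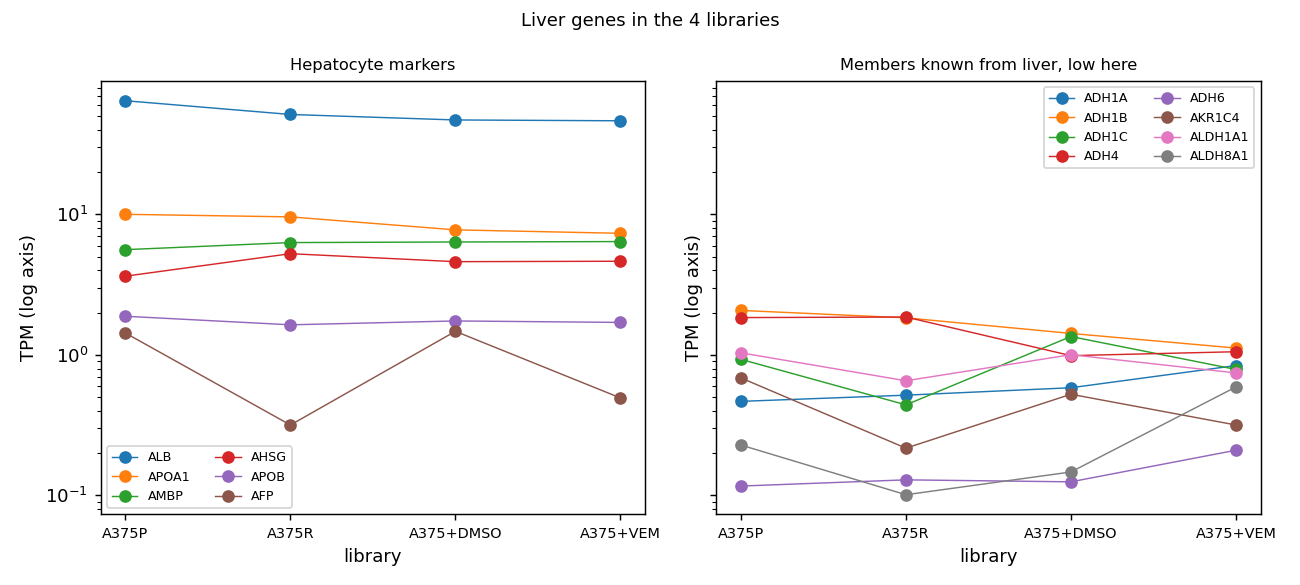
TPM on a log axis of the 6 hepatocyte markers (left) and of 8 members known from liver (right) in the 4 libraries, with lines joining the libraries of 1 gene. ALB lies between 46.4 and 64.5 TPM, while no member on the right exceeds 2.07 TPM.

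The order of the libraries was alike for many members. A375+VEM was the highest library for 17 of the 28 members at a TPM of 1 (60.7%), against 40.1% of all such genes in the table. A375P was the lowest for 14 (50%), against 37.4%. A375+VEM was the lowest for 6 (21.4%), against 29.6%, A375R for 6, against 18.2%, and A375+DMSO for 2 (7.14%), against 14.9%. The highest library was A375P for 6 members, against 26.7%, A375R for 4 (14.3%), against 20.9%, and A375+DMSO for 1 (3.57%), against 12.3%. Both A375+VEM highest and A375P lowest held for 13 members (46.4%) and 23.8% of all genes. For 12 members (42.9%) the TPM followed the order A375P, A375R, A375+DMSO, A375+VEM from low to high, which 16.4% of all genes did. The 12 were AKR1C1, AKR1C2, AKR1E2, AKR7A2, AKR7A3, ALDH16A1, ALDH2, ALDH3A2, ALDH3B1, ALDH5A1, ALDH6A1 and ALDH7A1. This order was chosen after the values were seen and is a description of 1 library per condition. Several steps in it are within counting error, such as AKR1E2 with 14 reads in both A375+DMSO and A375+VEM.

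Other genes of the same pathways, from lists limited to this stretch of the alphabet, went both ways. The first list held genes that make or use aldehydes, and also ACSS1 and ACSS2, which use acetate instead. Of 8 compared, 4 were higher in A375R than in A375P (AASS, ABAT, ACSS2 and AGMO) and 3 were lower (ACSS1, AOC2 and AOC3). The shares of all genes in this pair were 26.8% higher and 17.5% lower. The control mattered here, as the 4 higher genes were also higher in A375+DMSO against A375P. Against A375+DMSO, AASS (ratio 0.648), ABAT (0.426), AGMO (0.563) and ACSS1 (0.589) were lower in A375R, while AOC2 (1.72) and AOX1 were higher. These were 4 and 2 of 7 compared, where 9.99% of all genes were lower and 10.5% higher. In A375+VEM against A375+DMSO, 5 of 9 were higher and 2 lower, where 26.5% of all genes were higher and 19.7% lower. ABAT, which makes the substrate of ALDH5A1 from GABA, was 4.84-fold (95% interval 4.23 to 5.57) higher, and BCO2, which cleaves carotenoids to aldehydes, was 7.16-fold (95% interval 4.35 to 12.5) higher. ACSS1, AOC2 and AOC3 were also higher, while AGMO, at a ratio of 0.487, and the aldehyde oxidase AOX1, at 0.403, were lower.

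Another list held 8 genes of branched-chain amino acid breakdown, the pathway of ALDH6A1, or of its control. BCKDHA, BCKDHB and BCKDK were higher in A375R than in A375P and none of the 8 was lower. Of all genes in this pair, 26.8% were higher and 17.5% lower. BCKDK is the kinase that switches off the enzyme complex to which BCKDHA and BCKDHB belong. In A375+DMSO against A375P, BCKDHA, BCKDHB and BCKDK were 2.76-fold, 2.76-fold and 3.04-fold higher. Against A375+DMSO, none of the 8 was higher in A375R, and BCKDHA (ratio 0.636), BCKDHB (0.597) and ACADSB (0.629) were lower. The background there was 10.5% higher and 9.99% lower. In A375+VEM against A375+DMSO, ACAD8, ACADSB and AUH were higher. BCAT1 and BCAT2, which start the pathway by removing the amino group, were lower at ratios of 0.150 and 0.579. So 3 of 8 were higher and 2 lower, beside 26.5% and 19.7% of all genes.

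Of 7 genes linked to NRF2, a factor known to raise several AKR genes, ABCC3 and BLVRA were higher in A375R than in A375P, by 2.62-fold (95% interval 2.36 to 2.90) and 1.78-fold (95% interval 1.58 to 2.02). In that pair 26.8% of all genes were higher, near these 2 of 7, and 17.5% were lower. ABCC3 and BLVRA were lower in A375+VEM than A375+DMSO, at ratios of 0.203 and 0.570, where ABCC2 was higher, by 1.82-fold (95% interval 1.71 to 1.93). The background of the acute pair was 19.7% lower and 26.5% higher. ABCC3 and BLVRA were also higher in A375+DMSO against A375P, by 1.66-fold and 1.54-fold. Against A375+DMSO, ABCC3 (1.58-fold) and BACH1, a repressor that competes with NRF2, were higher in A375R, and BLVRA was at a ratio of 1.16. Of all genes, 10.5% were higher there. AKR1C1, AKR1C2 and AKR1C3 were called higher in A375R against A375P and in the acute pair. All of them were also called higher in A375+DMSO against A375P, where their summed reads were 4.58-fold after scaling. In A375R against A375+DMSO that sum was 1.05-fold (95% interval 0.900 to 1.23). Among 4 genes of one-carbon metabolism, AMT was higher in both pairs and ATIC lower in both, and AMD1 was lower in A375R than in A375P. Against A375+DMSO, AMT was lower in A375R (ratio 0.537), and ATIC (1.10) and AMD1 (1.25) did not pass the threshold. AMACR, of bile acid synthesis, was 8.16-fold (95% interval 7.17 to 9.31) higher in A375R than in A375P and lower in A375+VEM than A375+DMSO, at a ratio of 0.228, as was ACOX2 in that pair, at 0.256. AMACR was 1.58-fold higher in A375R against A375+DMSO. The carnitine gene BBOX1 stayed under a TPM of 1.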

How the data were processed

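RNA of 4 A375 libraries, 1 per condition, was sequenced, and groups were taken from the sample labels. The authors deposited a whole-number read count and a TPM for each gene and library. The deposited TPM divides each count by the length of its gene and scales the result to a fixed total over all genes of a library. The submitters' processing notes list hg19, HISAT, HISAT2, TopHat2 and Bowtie2 with no role or order, and the counting program and its use of strand are not given in the sources used here. An incomplete row was left out.

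Members and gene lists were chosen with earlier results of these data known. Ratios of (TPM + 0.1) were computed for genes that reached a TPM of 1 in either library, with 1.5-fold as the threshold, in 4 comparisons. Exact Clopper-Pearson intervals at 95% were set on the reads of a pair and scaled by the library constants behind the TPM. Where a library had 0 reads, the limit is the TPM of 3 reads. Values in all libraries were given for members at a TPM of at least 5, or past 1.5-fold, and the others by their range. Genes of the other lists were named where past 1.5-fold in A375R against A375P or A375+VEM against A375+DMSO.

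Protein identity had been planned, but no protein table was at hand, so the share of 50-base stretches of GENCODE 29 transcripts that occur in another gene was used. Alternatives were pseudocounts of 1 and 0.01, no filter, a minimum TPM of 5, a 2-fold threshold, a median ratio set to 1, and families without their most abundant gene. The steps were tested on simulated read counts that held counting error only, so the test does not cover variation between cultures or libraries. Tools were numpy 2.4.6 and pandas 2.3.3 for tables, scipy 1.17.1 for intervals and matplotlib 3.10.9 for plots, under Python 3.11.15.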

Additional observations from a re-analysis of the deposited data

Results flagged for a closer look

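ALDH1A3 passed 1.5-fold in opposite directions in the pairs that share no library. Its log2 ratio of (TPM + 0.1) was -2.80 between A375+VEM and A375+DMSO, but 0.67 between A375R and A375P. This difference was not tested, since each condition had 1 library. Scaled to a median ratio of 1, the second value was 0.58 and no longer past 1.5-fold. Against A375+DMSO in place of A375P, A375R was also higher, by 1.89-fold.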

How the results depend on the processing

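With 1 library per condition no replicate could be left out, and the causes of the changes below were not tested. No paired analysis was possible because there was 1 library per condition and no replicate number. A threshold of 2-fold left 4 of 26 members higher and 0 lower in A375R against A375P, where 14.7% of all genes were higher and 7.52% lower. For A375+VEM against A375+DMSO it left 4 of 28 higher and 3 lower, beside 15.3% and 11.1% of all genes. For A375+DMSO against A375P it left 9 of 27 higher and 0 lower, beside 16.6% and 9.36%. For A375R against A375+DMSO it left 1 of 28 higher and 3 lower, beside 4.23% and 4.41%. A pseudocount of 1 left 0 of 26 members lower in A375R against A375P, where 15.2% of all genes were lower. It also left 0 of 27 lower in A375+DMSO against A375P, where 17.1% were. Without the filter on low values all 39 members were compared. Of these, 4 were lower in A375R against A375P (18.7% of all genes) and 3 in A375+DMSO against A375P (18.5%). In A375R against A375+DMSO 5 were higher (13.5%). At a TPM of at least 5, 0 of 18 members were lower in A375R against A375P (15.9% of all genes). For A375+DMSO against A375P 0 of 18 were lower (18.4%). For A375R against A375+DMSO 1 of 18 was higher (9.78%) and 3 were lower (5.67%). Scaling to a median ratio of 1 gave 2 of 27 lower in A375+DMSO against A375P, beside 22.6% of all genes. For single members, this scaling ended the calls of ALDH1A3 in A375R, AKR1C1 and ALDH3B1 in A375+VEM, and AKR7A2 and ALDH2 in A375+DMSO, and added ADH1B as lower in A375+DMSO against A375P and ALDH5A1 as lower in A375R against A375+DMSO. Without ALDH1A3 the ratio of summed ALDH levels was 1.07 for A375R and 1.30 for A375+DMSO, each against A375P, and 1.15 for A375+VEM and 0.824 for A375R, each against A375+DMSO. Without AKR1B1 the AKR ratios were 1.06, 1.10, 1.05 and 0.965 in the same order. Without ADH5 the ADH ratios were 1.62 in A375+VEM against A375+DMSO, 1.16 in A375+DMSO against A375P and 0.733 in A375R against A375+DMSO. The summed ratios that crossed 1 in this way were those of ALDH in A375+VEM (0.564 with ALDH1A3), in A375+DMSO (0.990) and in A375R against A375+DMSO (1.44), of AKR in A375+VEM (0.995 with AKR1B1) and in A375R against A375+DMSO (1.19), and of ADH in A375+VEM (0.961 with ADH5, so from below 1 to past 1.5-fold) and in A375+DMSO (0.996). No called member changed direction under the pseudocounts of 1 and 0.01 or the median scaling. Members with under 30 reads in a library, such as AKR1B10, AKR1E2, ALDH1A1 and ADH1C, have wide counting intervals.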

Other observations

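Rows with the same name stems that are not protein-coding were mostly silent. AKR7A2P1 had 19 reads (A375P), 18 (A375R), 27 (A375+DMSO) and 28 (A375+VEM), and AKR7L had 16, 14, 9 and 13 reads in the same order. Every other such row, among them the pseudogenes of AKR1B1, ADH5 and ALDH7A1, had at most 4 reads in any library.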
